A study of Mus musculus with 57 samples.

Results

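Cells sorted as FOXA2+ were compared with cells sorted as FOXA2- after 2 days of RA differentiation (D2). The members are the 12 libraries of D2 out of 57 in the series, 6 FOXA2+ and 6 FOXA2-. The FOXA2+ side held 3 Sox1-FOXA2+ and 3 Sox1+FOXA2+ libraries, the FOXA2- side 3 Sox1-FOXA2- and 3 Sox1+FOXA2- libraries, and the Sox1 gate was a covariate, so that each difference is one between cells of the same Sox1 gate. Cells with and without FOXA2 are those of the FOXA2+ and the FOXA2- gate. All 4 populations came from the mouse ESC line Sox1-EGFP/FoxA2mCherry, in which EGFP reports Sox1 and mCherry was joined to the 3′ end of FoxA2 by Cas9 editing. The line is 1 clone, chosen by how well its mCherry followed FOXA2 antibody staining. Cells left SerumLIF for N2B27 medium with 1 uM RA at the start, and were then sorted by fluorescence into samples of about 500 cells for bulk RNASeq. The study calls the 3 libraries of a population biological replicates but does not say whether each was a culture of its own, so that the p-values measure the spread between these samples.

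FOXA2 is a forkhead transcription factor that can bind its sites in closed chromatin, and it marks the endoderm, the node, the notochord and the floor plate of the embryo. SOX1 is an early marker of neuroectoderm. RA drives ESCs out of naive pluripotency and, in N2B27, mainly toward neuroectoderm, but extraembryonic endoderm can arise in the same cultures. The comparison asks what else differs, at the start of differentiation, between cells that carry FOXA2 and cells that do not.

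The D2 libraries held between 25237064 and 61358355 counts on genes, and 15262 to 23037 genes had at least 1 count. Counts of the 13 mitochondrial protein-coding genes made up 0.668% to 1.23% of the total in FOXA2+ libraries and 1.03% to 1.5% in FOXA2- libraries. That share was lower in FOXA2+ cells by a difference of means of 0.252 percentage points (exact permutation within Sox1 gates, two-sided, p = 0.005, the smallest that 400 regroupings can give, adjusted over 4 library measures p = 0.02). The number of genes detected, 15262 to 19395 in FOXA2+ and 15904 to 23037 in FOXA2- libraries, did not pass the same exact permutation test (p = 0.06, adjusted p = 0.12), but without Sox1+FOXA2- replicate 3 the difference of means, FOXA2+ minus FOXA2-, was -3832 genes and passed (exact permutation, p = 0.01). One FOXA2- library stood apart: the summed level of the naive pluripotency genes in Sox1+FOXA2- replicate 3 was 54912 normalized counts, against 11176 and 14728 in replicates 1 and 2, and it lay within the 31192 to 75495 of the Sox1-FOXA2- libraries. Calls that were lost without that library are named where they occur. The part of the mitochondrial share and of these markers in the differences below was not tested.

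Foxa2 itself (ENSMUSG00000037025, chromosome 2, 148042877 to 148046969, minus strand) followed the gate. Normalized counts, which are counts divided by a size factor of each library, were 107, 0 and 0 in Sox1-FOXA2- and 308, 324 and 0 in Sox1+FOXA2- replicates 1 to 3. They were 3241, 3057 and 1646 in Sox1-FOXA2+ and 1582, 1956 and 1067 in Sox1+FOXA2+ replicates, so that every FOXA2+ library lay above every FOXA2- library. The fitted difference was 4.54 on the log2 scale (SE 1.29), with an adjusted p of 0.25 in edgeR's quasi-likelihood test and with 3 FOXA2- libraries at 0. Since the gate selected cells by FOXA2, this is a check of the sort and not a result. The related factor Foxa1 differed by 0.90 (SE 0.48, adjusted p = 0.678), and Foxa3 was listed at 0 in 4 of 6 FOXA2+ libraries. Sox1 had 0 counts in all 57 libraries, and Sox2 had 0 in the 12 libraries of D2. The Sox1 gate could therefore not be checked on Sox1. Both genes lie inside other annotated genes, and in this line EGFP stands in for 1 of the Sox1 alleles. The part of either in the 0 counts was not tested.

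Between FOXA2+ and FOXA2- cells, 16 of 20369 genes tested were called at an adjusted p under 0.05 (edgeR's quasi-likelihood test, Benjamini-Hochberg over all genes), 8 higher and 8 lower in FOXA2+ cells, which is 0.0786% of the genes tested, and 0.0393% in each direction. The genes that rose included both IGF-binding proteins Igfbp5 and Igfbp4, the imprinted zinc finger gene Peg3 and the surface glycoprotein genes Cd24a and Emb. Those that fell included the RA receptor Rarg, the naive pluripotency gene Dppa5a, the glucose transporter gene Slc2a3 and the lipid peroxidase gene Gpx4. An unadjusted p under 0.05 was reached by 1784 genes, 688 higher (3.38%) and 1096 lower (5.38%), where 5% of the genes tested is 1018. For 14 of the 16 called genes the 6 FOXA2+ libraries did not overlap the 6 FOXA2- libraries, as for 1.09% of all genes tested (0.339% with FOXA2+ higher, 0.751% with FOXA2+ lower). The median log2 difference of all genes was -0.05. In these bulk samples, fewer cells of a type and less RNA per cell cannot be told apart. The number of calls moved when 1 library was left out: it was 6 without Sox1-FOXA2- replicate 2, 8 without Sox1+FOXA2- replicate 3, 10 if Sox1-FOXA2- replicate 3 was left out, 26 and 29 for Sox1+FOXA2- replicates 2 and 1, and 30 for Sox1+FOXA2+ replicate 3. DESeq2's Wald test called 372 genes on the same libraries, among them all 16.

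Igfbp5 (chromosome 1, 72857932 to 72874884) and Igfbp4 (chromosome 11, 99041244 to 99054392) encode secreted proteins that bind IGFs and hold them in the extracellular space. Igfbp5 held 500, 182 and 423 normalized counts in the Sox1-FOXA2- replicates and 757, 374 and 502 in the Sox1+FOXA2- replicates. In FOXA2+ cells it reached 4090, 5351 and 2908 (Sox1-) and 1818, 14631 and 1665 (Sox1+). No FOXA2+ library overlapped a FOXA2- library, and Sox1+FOXA2+ replicate 2 stood far above the others. The difference was 3.51 on the log2 scale (SE 0.49, adjusted p = 0.00697), or 2.70 without that replicate. Igfbp4 held 529, 305 and 618 in Sox1-FOXA2- and 1404, 1228 and 1600 in Sox1+FOXA2- cells, against 4413, 3919 and 7078 in Sox1-FOXA2+ and 3119, 2209 and 4681 in Sox1+FOXA2+ cells. Its difference was 2.33 (SE 0.38, adjusted p = 0.0231), and the lowest FOXA2+ library lay above the highest FOXA2- library, but each Sox1-FOXA2- replicate was needed for the call (adjusted p up to 0.0888 without one).

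Peg3 (chromosome 7, 6703892 to 6730431), a paternally expressed zinc finger gene, was among the called genes with the smallest p. It held 14798, 5504 and 7173 normalized counts in Sox1-FOXA2- and 27070, 32663 and 18125 in Sox1+FOXA2- cells. In Sox1-FOXA2+ cells it held 57865, 68739 and 51662, and in Sox1+FOXA2+ cells 39292, 97544 and 89502. The groups did not overlap, and the difference of 2.14 (SE 0.29, adjusted p = 0.00697) was called without any one of the 12 libraries. Cd24a, which encodes a small membrane-anchored glycoprotein of immature cells, held 1374, 975 and 1290 and 2205, 2064 and 773 in the Sox1- and Sox1+ libraries without FOXA2. With FOXA2 the values were 3268, 4416 and 4223 and 3124, 5377 and 7514, a difference of 1.70 (SE 0.26, adjusted p = 0.0141) that lost its call without Sox1-FOXA2- replicate 2 (adjusted p = 0.0587). Emb, coding for embigin, a membrane glycoprotein that escorts lactate transporters, ranged from 2002 to 3032 in FOXA2- and from 4462 to 11142 in FOXA2+ libraries (difference 1.51, SE 0.22, adjusted p = 0.00814).

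The remaining called genes that rose did so by less than 1 on the log2 scale. Cald1 (caldesmon) and Myh9 (a heavy chain of non-muscle myosin II) belong to the contractile actin cytoskeleton. Cald1 ranged from 2757 to 3992 normalized counts in FOXA2- and from 4465 to 7500 in FOXA2+ libraries, a difference of 0.95 (SE 0.16, adjusted p = 0.0271). Myh9 went from between 7864 and 12859 to between 15166 and 27445, a difference of 0.89 (SE 0.16, adjusted p = 0.042). Neither gene's groups overlapped. Spats2, named for a transcript of the testis, differed by 0.93 (SE 0.17, adjusted p = 0.042), and its lowest FOXA2+ library (4356) lay just under its highest FOXA2- library (4416). All 3 lost their call without Sox1+FOXA2- replicate 3, and in 9 or 10 of the 12 fits that left out 1 library.

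**Figure D1:**
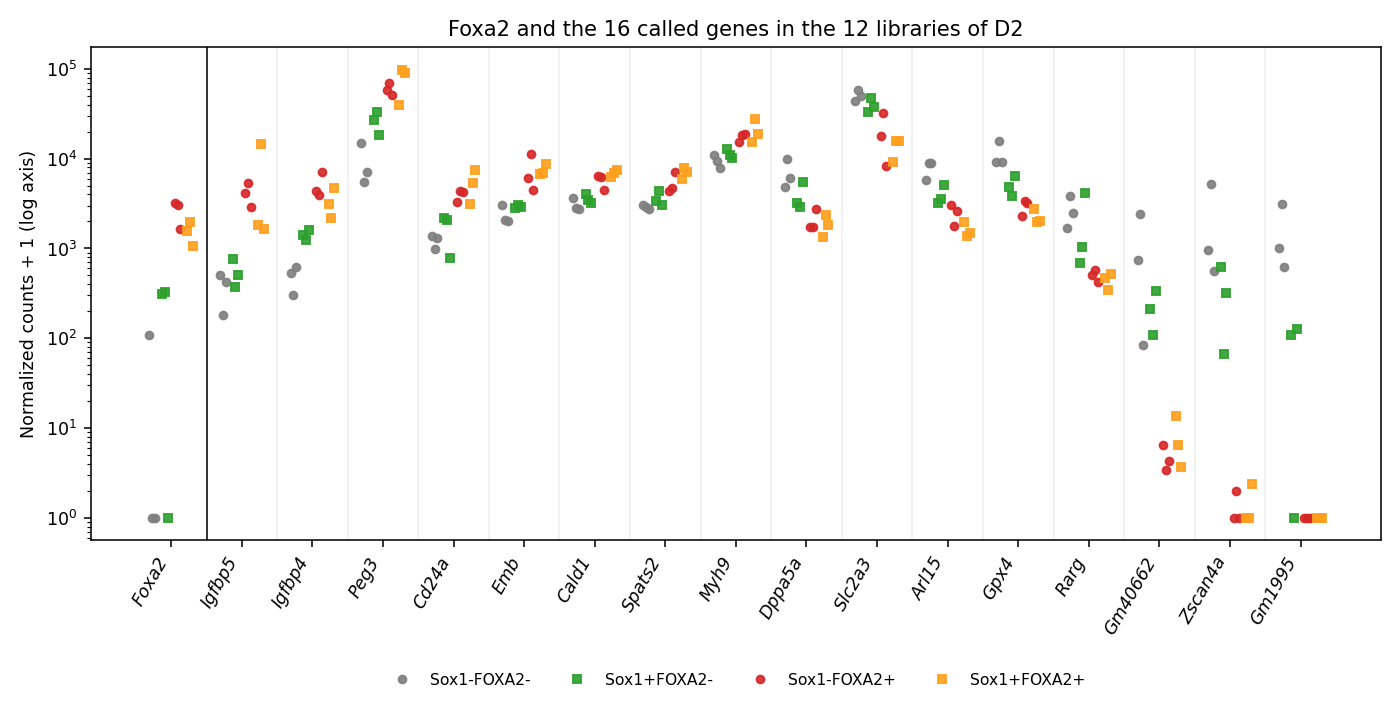
Normalized counts plus 1 (log axis) of Foxa2 and of the 16 called genes in each of the 12 libraries of D2. Each point is 1 library, circles are Sox1- and squares Sox1+ libraries, and the called genes run from the highest to the lowest log2 difference. For 14 of the 16 called genes, no FOXA2+ point overlaps a FOXA2- point.

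Among the genes that fell, Rarg (chromosome 15, 102234938 to 102257517) encodes RAR gamma, 1 of the 3 RA receptors and the main one of undifferentiated ESCs. It held 1697, 3817 and 2471 normalized counts in Sox1-FOXA2- and 691, 1036 and 4147 in Sox1+FOXA2- cells, and 508, 575 and 419 in Sox1-FOXA2+ and 473, 341 and 519 in Sox1+FOXA2+ cells. All 6 FOXA2+ libraries were below all 6 FOXA2- libraries, and Sox1+FOXA2- replicate 3 was the highest of all. The difference was -2.26 (SE 0.40, adjusted p = 0.0416), or -1.80 without that library (adjusted p = 0.128). Dppa5a, a marker of naive ESCs, held 4875, 9916 and 6089 and 3242, 2896 and 5534 in Sox1- and Sox1+ cells without FOXA2, and 1720, 1720 and 2781 and 1342, 2386 and 1815 in those with it. Its groups did not overlap either (difference -1.40, SE 0.25, adjusted p = 0.0455, and 0.128 without Sox1+FOXA2- replicate 3).

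Slc2a3, the gene of the glucose transporter GLUT3, held 43824, 58822 and 49311 normalized counts in Sox1-FOXA2- cells and 32978, 47004 and 37170 in Sox1+FOXA2- cells. With FOXA2 it held 18084, 32558 and 8251 (Sox1-) and 9176, 15686 and 15514 (Sox1+). The highest FOXA2+ library, Sox1-FOXA2+ replicate 2, was just below the lowest FOXA2- library, and the difference was -1.43 (SE 0.25, adjusted p = 0.042, and 0.111 without Sox1+FOXA2- replicate 3). Gpx4 (chromosome 10, 80047166 to 80056439), the enzyme that reduces lipid peroxides and guards against ferroptosis, ranged from 3836 to 15705 in FOXA2- and from 1965 to 3413 in FOXA2+ libraries (difference -1.54, SE 0.23, adjusted p = 0.0093). Arl15, a small GTPase of the ARF-like group, ranged from 3189 to 8974 and from 1381 to 3077 (difference -1.46, SE 0.20, adjusted p = 0.00697). With 1 library left out, Rarg lost its call in 7, Dppa5a in 6 and Slc2a3 in 3 of the 12 fits, always including the fits that lack replicate 2 of Sox1-FOXA2- or replicate 3 of Sox1+FOXA2-. Gpx4 and Arl15 were called without any one of the 12 libraries, as were Zscan4a, Peg3, Igfbp5 and Emb.

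The other called genes that fell were transcripts near 0 in FOXA2+ cells, which passed the count filter through the FOXA2- libraries. Zscan4a is annotated as an unprocessed pseudogene on chromosome 7 and belongs to the Zscan4 cluster, which is active in the 2-cell embryo and in the small 2-cell-like fraction of ESC cultures. It held 968, 5232 and 554 normalized counts in Sox1-FOXA2- and 624, 65.0 and 318 in Sox1+FOXA2- cells, and 3 counts in all 6 FOXA2+ libraries together. The ratio was 3548 (95% exact counting interval 1214 to 17210, which covers counting error only), with an adjusted p of 0.000265. Gm1995, a processed pseudogene on chromosome 12, held 1002, 3103 and 627 and 108, 0 and 125 in the Sox1- and Sox1+ libraries without FOXA2 and was at 0 in every FOXA2+ library. That is at least 2275-fold lower against a floor of 3 counts over the FOXA2+ group (adjusted p = 0.0271), and 1 FOXA2- library was at 0 too. Gm40662, a lincRNA on chromosome 13, ranged from 82.2 to 2447 in FOXA2- and from 2.46 to 12.7 in FOXA2+ libraries (adjusted p = 0.0277). For all 3, Sox1-FOXA2- replicate 2 was far the highest library. Without it Zscan4a was still called, whereas the adjusted p was 0.142 for Gm1995 and 0.221 for Gm40662. Gm1995 and Gm40662 also lost their call without Sox1+FOXA2- replicate 3.

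The Zscan4 copies are alike in sequence, which is shown here for 4 members of the cluster other than Zscan4a. Over the 60 bases aligned below, taken from within 250 bases before the start of each gene in the RefSeq promoter table (GRCm38.p6), Zscan4c and Zscan4f were identical, and capitals mark bases that differ from Zscan4f. Zscan4d differed at 1 of 60 bases and Zscan4b at 2.
Zscan4b (chr7:10905207-10905266, minus strand): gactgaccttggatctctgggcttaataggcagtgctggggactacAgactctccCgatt
Zscan4c (chr7:11005506-11005565, plus strand): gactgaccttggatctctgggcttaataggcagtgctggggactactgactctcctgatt
Zscan4d (chr7:11166339-11166398, minus strand): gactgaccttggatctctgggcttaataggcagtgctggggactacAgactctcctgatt
Zscan4f (chr7:11397699-11397758, plus strand): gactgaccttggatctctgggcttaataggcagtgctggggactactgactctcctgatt
Each window was placed at the same opening letters, looked for in every copy, so that part of the likeness was set by that choice. These windows lie before the gene starts and show only how alike the copies are there. Whether reads of one copy were counted on another was not tested.

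Outside the 16 calls, the next genes by p were Ablim1 and Ptch1 among those higher, and Gm49742 and Gm4285 among those lower, none of them called. Ptch1 encodes the receptor of Hedgehog ligands and is itself a target of the pathway. It held 2936, 4269 and 6432 normalized counts in Sox1-FOXA2- and 3397, 4633 and 3462 in Sox1+FOXA2- cells, and 11564, 26742 and 20092 in Sox1-FOXA2+ and 3676, 9789 and 9954 in Sox1+FOXA2+ cells. The Sox1- libraries did not overlap, whereas Sox1+FOXA2+ replicate 1 lay within the Sox1+FOXA2- range (difference 1.58, SE 0.30, adjusted p = 0.0573). Ablim1, an actin-binding LIM protein, ranged from 105 to 705 in FOXA2- and from 1059 to 4095 in FOXA2+ libraries (difference 2.25, SE 0.42, adjusted p = 0.0573). The lincRNA Gm49742 had at most 7.23 normalized counts in a FOXA2+ library against 15.7 to 990 in FOXA2- libraries (adjusted p = 0.0573). The antisense transcript Gm4285 had 2 counts in all FOXA2+ libraries against 1298 in the FOXA2- libraries (ratio 614, 95% exact counting interval 170 to 5077, adjusted p = 0.0573).

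Within the Sox1- gate, the FOXA2 difference was called for 4 genes (0.0196% of 20369), namely Igfbp4, Peg3, Zscan4a and Gpx4. Igfbp4 differed by 3.40 (SE 0.36, adjusted p = 0.00104) and Peg3 by 2.71 (SE 0.37, adjusted p = 0.0118). Gpx4 differed by -1.94 (SE 0.30, adjusted p = 0.0291), and the adjusted p of Zscan4a was 0.00863. That number was 1 and 12 after leaving out Sox1-FOXA2- replicate 2 and Sox1+FOXA2+ replicate 3 in turn, and 8 or 9 for Sox1-FOXA2- replicate 1, Sox1-FOXA2+ replicate 1, Sox1-FOXA2+ replicate 3 or Sox1+FOXA2- replicate 3. Within the Sox1+ gate, edgeR called 0 genes (0.0%) by FOXA2. There, 1542 genes had an unadjusted p under 0.05 and DESeq2's Wald test called 392, and edgeR called 6, 2 and 1 genes when Sox1+FOXA2+ replicate 1, Sox1+FOXA2- replicate 2 or Sox1-FOXA2+ replicate 1, in this order, was left out.

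Each of the 16 called genes differed in the same direction in both Sox1 gates, with an unadjusted p under 0.05 in each, which was reached by 2.58% (higher) and 4.99% (lower) of all genes within Sox1- and by 2.41% and 5.16% within Sox1+. The 16 were chosen by the fit over both gates of these same libraries, so that this agreement is not independent of the choice. For 11 of the 16 the difference was larger within Sox1-. Whether the FOXA2 difference depended on the Sox1 gate was tested by an interaction term, which called 0 genes in edgeR (0.0%, 1064 at an unadjusted p under 0.05, 366 called by DESeq2's Wald test, and 1 by edgeR without Sox1+FOXA2+ replicate 1). Of the called genes, Igfbp4 had the smallest interaction p: its difference was 3.40 in Sox1- and 1.26 in Sox1+ cells (difference of differences -2.14, unadjusted p = 0.000311, adjusted p = 0.888). Peg3 followed at -1.14 (unadjusted p = 0.035). Dab2, an endocytic adaptor of extraembryonic endoderm, differed by 3.02 in Sox1- and -0.16 in Sox1+ cells (interaction with an adjusted p of 0.888). Amot, a partner of YAP, differed by 2.63 and -0.16. The others with the smallest p were Slc26a10 and Trnp1, both at 0 in Sox1+FOXA2+ cells, and, in the opposite direction, Tmem212, Gm26691, Bicral, Mfap3l and Manba, none of them called.

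**Figure D2:**
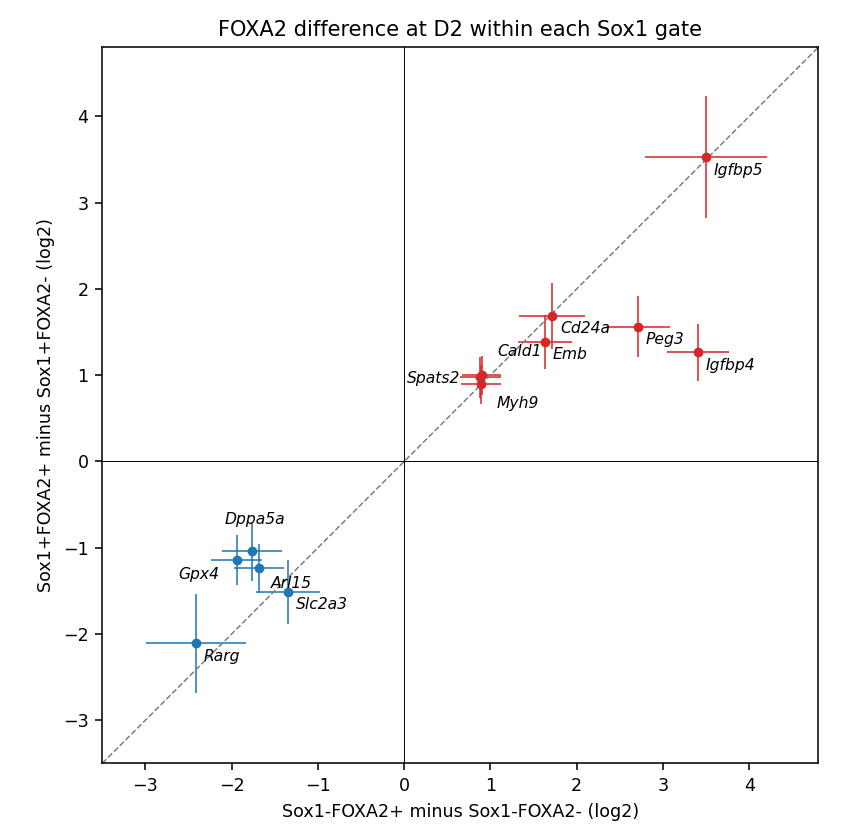
Log2 difference between FOXA2+ and FOXA2- cells within Sox1- (horizontal axis) and within Sox1+ cells (vertical axis) at D2, for the 13 called genes other than Zscan4a, Gm1995 and Gm40662, which are near 0 in FOXA2+ cells. Bars are standard errors and the dashed line marks equal differences. All 13, which were chosen by the fit over both gates of these libraries, lie in the same direction on both axes. Igfbp4 and Peg3 lie farthest to the side of the Sox1- gate.

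Naive pluripotency genes were mostly at a lower level in FOXA2+ cells, with Dppa5a the 1 member that was called. Of 19 naive pluripotency genes 18 were tested and Rex2 had no counts. Among them, 13 had an unadjusted p under 0.05 and a lower level (5.38% of all genes did), 0 had one with a higher level (3.38%), and the median log2 difference was -2.16, against -0.05 over all genes. Zfp42 (Rex1) held 4117, 9726 and 11843 normalized counts in the Sox1- and 1069, 1491 and 10142 in the Sox1+ libraries without FOXA2. With FOXA2 it held 1100, 1049 and 458 in Sox1- and 1039, 2675 and 1722 in Sox1+ cells. Its replicate 3 of Sox1+FOXA2- lay with the Sox1-FOXA2- libraries, and replicates 1 and 2 lay within the FOXA2+ range (difference -2.24, SE 0.57, adjusted p = 0.171). Nanog held 1448, 7024 and 4727 normalized counts in Sox1- and 145, 560 and 4247 in Sox1+ cells without FOXA2. With FOXA2 it held 0.903, 0.983 and 117 in Sox1- and 55.5, 1194 and 469 in Sox1+ cells. The groups overlapped through the Sox1+ libraries (difference -4.12, SE 1.5, adjusted p = 0.309). Esrrb and Tfcp2l1, factors of the naive network, differed by -2.13 (SE 0.61, adjusted p = 0.251) and -1.71 (SE 0.49, adjusted p = 0.251). Tet2, a dioxygenase of 5-methylcytosine, differed by -1.38 (SE 0.30, adjusted p = 0.103).

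The naive list's median was -3.08 within Sox1- and -1.07 within Sox1+ cells. At an unadjusted p under 0.05, 13 members were lower and 0 higher within Sox1-, against 4 lower and 1 higher within Sox1+. Without Sox1+FOXA2- replicate 3 the fit over both gates gave -1.81, where 8 members had an unadjusted p under 0.05 and a lower level and 0 were called. The list's summed level ran from 8157 to 15820 in FOXA2+ and from 11176 to 75495 in FOXA2- libraries, and from 46467 to 139536 at D0. In Sox1+FOXA2- replicates 1 and 2 it was 11176 and 14728, within the 8157 to 15820 of the Sox1+FOXA2+ libraries. The 18 core and formative pluripotency genes gave a smaller median of -0.46 over 17 tested, with 2 members lower and 1 higher at an unadjusted p under 0.05 and none called. Pou5f1 (Oct4) held 650, 1554 and 1201 normalized counts in Sox1- and 352, 742 and 1455 in Sox1+ cells without FOXA2. With FOXA2 the values were 56.0, 256 and 156 in Sox1- and 87.3, 309 and 0 in Sox1+ cells, below every FOXA2- library (difference -2.74, SE 0.83, adjusted p = 0.263). Lin28a, an RNA-binding protein of early embryonic cells, differed the other way by 0.70 (SE 0.17, adjusted p = 0.151).

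Of 24 genes of the two-cell-like list 19 were tested, and all 19 had a negative difference. Members near 0 in FOXA2+ libraries, such as Zscan4a and Zfp352, passed the count filter only through FOXA2- libraries. For such members the negative sign was fixed by the filter, so that the count of signs and the median below are no test of the list. Zscan4a was called, 12 had an unadjusted p under 0.05 and a lower level, and the median was -3.95, or -4.61 without Sox1+FOXA2- replicate 3. Within Sox1- cells all 19 were negative with a median of -4.82, whereas within Sox1+ cells 3 of the 19 were positive, the median was -1.99 and 6 were lower at an unadjusted p under 0.05. The Zscan4 copies among them belong to the same cluster of like copies, so that the members are not taken as independent. The summed level ran from 2815 to 8071 in FOXA2+ and from 4559 to 64170 in FOXA2- libraries, where the lowest was Sox1+FOXA2- replicate 2. Zscan4d held 7435, 13714 and 1805 normalized counts in Sox1-FOXA2- and 2679, 188 and 2178 in Sox1+FOXA2- cells, and 0, 1.97 and 167 in Sox1-FOXA2+ and 120, 56.3 and 1273 in Sox1+FOXA2+ cells, so that its groups overlapped in the Sox1+ gate only (difference -4.44, SE 1.5, adjusted p = 0.281). Zfp352 had 0 counts in the FOXA2+ libraries and 2688 in the FOXA2- libraries, at least 848-fold lower against the same floor (adjusted p = 0.107), although 1 FOXA2- library was at 0 too.

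**Figure D3:**
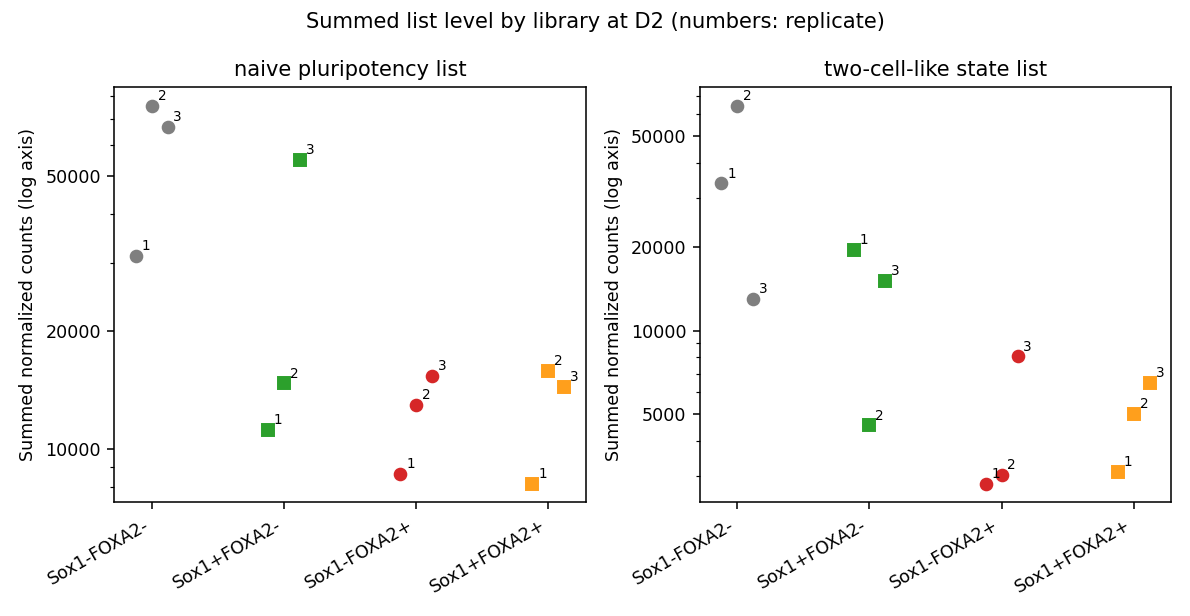
Summed normalized counts (log axis) of the naive pluripotency list and of the two-cell-like list in each D2 library, with the replicate number beside each point. Sox1+FOXA2- replicate 3 lies with the Sox1-FOXA2- libraries in the naive list, and the highest FOXA2+ library of that list is at 15820.

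Endoderm genes had positive medians and no calls at D2. So did the lists of primitive streak and mesendoderm (median 0.55) and of mesoderm, neural crest and mesenchyme (0.71). Of the 28 genes of primitive and visceral endoderm 24 were tested, 15 with a positive and 9 with a negative difference. At an unadjusted p under 0.05, 5 were higher (3.38% of all genes) and 1 was lower (5.38%). The median was 0.82 (1.94 within Sox1- and 0.05 within Sox1+ cells, and 0.46 to 1.265 over both gates with 1 library left out). The list's summed level had a median of 16922 in FOXA2+ and 17889 in FOXA2- libraries. Within Sox1- cells it was 20032, 35570 and 27553.5 with FOXA2 and 17263, 18515 and 14081 without. Within Sox1+ cells it was 12914, 13812 and 12736 with FOXA2 and 21422, 28796 and 11921 without. Cubn, the cubilin receptor of visceral endoderm, held 28.5, 0 and 70.2 and 94.9, 72.9 and 0 normalized counts in Sox1- and Sox1+ cells without FOXA2, and 1151, 5647 and 1795 and 65.9, 436 and 257 in those with it. Sox1-FOXA2+ cells had the highest values, and 1 Sox1+FOXA2+ library lay within the FOXA2- range (difference 4.34, SE 1.30, adjusted p = 0.263). Transthyretin (Ttr), a secreted protein of visceral endoderm, was at 0 in all FOXA2- libraries and held 350, 0 and 2.19 in Sox1-FOXA2+ and 25.4, 517 and 27.3 in Sox1+FOXA2+ cells. It was at least 361-fold higher against a floor of 3 counts over the FOXA2- group, with 1 FOXA2+ library at 0 (adjusted p = 0.205). Sox17 and Gata4, factors of endoderm, differed by 2.80 (SE 1.13, adjusted p = 0.41) and 1.51 (SE 0.88, adjusted p = 0.758). Lrp2 (megalin) differed by -0.66 (SE 0.25, adjusted p = 0.33), and Apoa2 had no counts.

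Of the 21 genes of parietal endoderm and basement membrane 20 were tested, 12 with a positive and 8 with a negative difference. At an unadjusted p under 0.05, 8 were higher (3.38% of all genes) and 1 was lower (5.38%). The median was 0.47 (0.19 to 0.71 with 1 library left out). The list's summed level ran from 46707 to 151881 in FOXA2+ and from 40832 to 80096 in FOXA2- libraries. Collagen IV chains came nearest to a call. Col4a2 held 1483, 705 and 1034 normalized counts in Sox1- and 2310, 1220 and 842 in Sox1+ cells without FOXA2. FOXA2+ cells held 4604, 3842 and 7202 in Sox1- and 2434, 5940 and 1433 in Sox1+ cells. The Sox1- libraries did not overlap and the Sox1+ libraries did (difference 1.74, SE 0.36, adjusted p = 0.0859). Its partner chain Col4a1 differed by 1.84 (SE 0.43, adjusted p = 0.129), and the laminin chain gene Lama1 by 2.89 within Sox1- and 0.38 within Sox1+ cells (both gates 1.64, SE 0.54, adjusted p = 0.278). Laminin gamma 1 (Lamc1) differed by -0.03 (SE 0.31). The intermediate filament gene Vim differed by 1.18 (SE 0.33, adjusted p = 0.25). The list's median was 1.32 within Sox1- and -0.08 within Sox1+ cells.

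Among 17 definitive endoderm genes 14 were tested, 11 positive and 3 negative (median 0.64, 0.31 to 0.87 with 1 library left out). At an unadjusted p under 0.05, 2 were higher (3.38% of all genes) and 1 was lower (5.38%). Of the defining markers, Cer1 had no counts and Cxcr4 had counts in 1 of 6 FOXA2+ and 2 of 6 FOXA2- libraries. Prdm1 (Blimp1), a repressor used in several early lineages, held 1513, 758 and 499 and 2673, 1900 and 95.5 in Sox1- and Sox1+ cells without FOXA2 and 4106, 3076 and 2773 and 4328, 6780 and 4045 in those with it, without overlap (difference 1.79, SE 0.49, adjusted p = 0.22). In the list of primitive streak and mesendoderm, 10 of 15 genes were tested, with 1 higher and 1 lower at an unadjusted p under 0.05 and a median of 0.55, which lay between -0.215 and 0.85 with 1 library left out. T (brachyury) and Mixl1 were too low to be tested. Tdgf1 (Cripto), the Nodal co-receptor, held 443, 3019 and 2063 normalized counts in Sox1- and 153, 261 and 2341 in Sox1+ cells without FOXA2. In FOXA2+ cells the counts were 3.61, 1.97 and 169 in Sox1- and 0, 83.5 and 0 in Sox1+ cells. Only Sox1-FOXA2+ replicate 3 reached the range of the FOXA2- libraries (difference -5.02, SE 1.31, adjusted p = 0.187).

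**Figure D4:**
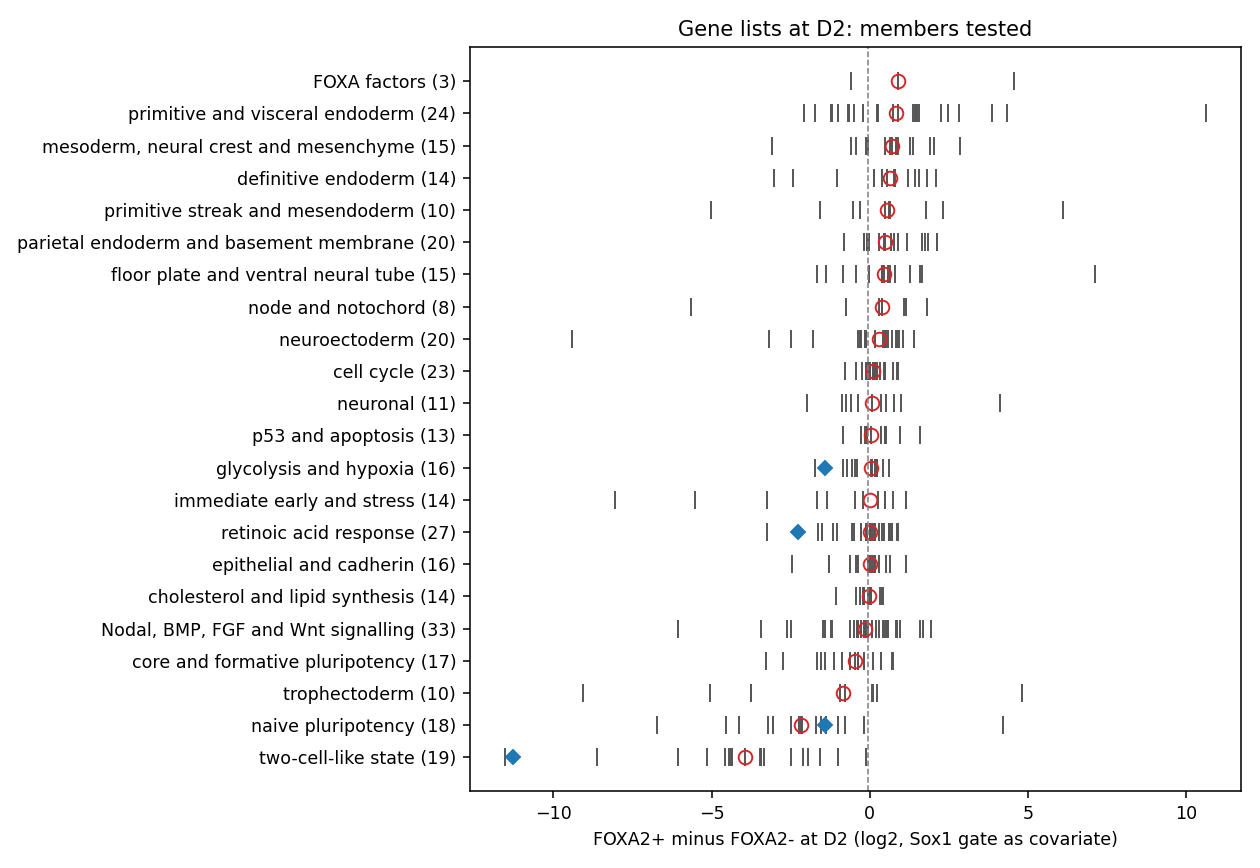
Log2 difference between FOXA2+ and FOXA2- cells at D2 (horizontal axis) for the tested members of the 22 gene lists, with the number tested in brackets. Bars are single genes, blue diamonds called genes, red circles list medians, and the dashed line is the median of all genes at -0.05. The naive pluripotency and two-cell-like lists have the lowest medians, at -2.16 and -3.95.

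Neural lists showed no calls. Of 26 neuroectoderm genes 20 were tested, with a median of 0.29 (between -0.27 and 0.41 with 1 library left out). At an unadjusted p under 0.05, 1 was higher (3.38% of all genes) and 1 was lower (5.38%). Nes (nestin), a filament of neural progenitors, held 1690, 1082 and 1048 normalized counts in Sox1- and 2809, 1676 and 515 in Sox1+ cells without FOXA2. With FOXA2 it held 1279, 1332 and 2100 in Sox1- and 2828, 6101 and 3895 in Sox1+ cells, and all 3 Sox1+FOXA2+ libraries lay above every FOXA2- library (difference 0.85, SE 0.36, adjusted p = 0.454). Pax6, a neuroectoderm factor, differed by -0.17 (SE 0.51), less than its error, and had the opposite sign without Sox1+FOXA2- replicate 1 (0.30) or Sox1+FOXA2+ replicate 2 (0.08). Of 14 neuronal genes 11 were tested, 2 higher and 0 lower at an unadjusted p under 0.05 (median 0.06, -0.30 to 0.19 with 1 library left out). Tubb3 and Neurod1 had no counts.

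In the floor plate and ventral neural tube list, 15 of 18 genes were tested, and the median was 0.43. At an unadjusted p under 0.05, 3 were higher (3.38% of all genes) and 0 lower (5.38%). The 3 were Ptch1, Spon1 and Nkx6-1. Spon1, which encodes F-spondin of the floor plate, differed by 1.27 (SE 0.39, adjusted p = 0.264). Nkx6-1, a ventral progenitor factor, held 83.1, 51.1 and 0 and 0, 312 and 330 in Sox1-FOXA2+ and Sox1+FOXA2+ cells and was at 0 in 5 of 6 FOXA2- libraries (adjusted p = 0.278). Gli1, the usual readout of Hedgehog signalling, differed by 0.80 (SE 1.71, adjusted p = 0.987), or by 0.08 and 1.22 when replicates 2 and 3 of Sox1+FOXA2+ cells were left out in turn, and Shh had counts in 2 of 6 FOXA2+ and 1 of 6 FOXA2- libraries. Nkx2-2 and Ferd3l had no counts. The 8 tested genes of the node and notochord list (of 10) had 0 higher and 1 lower at an unadjusted p under 0.05 and a median of 0.38 (0.17 to 1.11 with 1 library left out).

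The RA response list was spread around 0. Of its 32 genes 27 were tested, Rarg was called, and the median was -0.0029 (-0.32 to 0.09 with 1 library left out). At an unadjusted p under 0.05, 1 gene was higher (3.38% of all genes) and 3 were lower (5.38%). The 5 genes not tested, Hoxb2, Hoxa3, Hoxa4, Hoxa5 and Hoxb5, had no counts in the D2 libraries, so that the list says nothing on them. Why they had none was not tested. Stra8, an RA-induced gene, differed by -0.50 (SE 0.19, adjusted p = 0.345) and Rxra, the partner of the RA receptors, by -1.04 (SE 0.46, adjusted p = 0.49), with -2.14 in Sox1- and 0.06 in Sox1+ cells. Rarb, the RA receptor that RA itself induces, differed by 0.68 (SE 0.36, adjusted p = 0.66). Of 37 genes of Nodal, BMP, FGF and Wnt signalling 33 were tested, 1 was higher and 3 lower at an unadjusted p under 0.05, and the median was -0.16. Lef1, a nuclear effector of Wnt signalling, held 1012, 724 and 4327 normalized counts in Sox1- and 1169, 3181 and 946 in Sox1+ cells without FOXA2. The FOXA2+ values were 630, 239 and 278 in Sox1- and 543, 137 and 186 in Sox1+ cells, below every FOXA2- library (difference -2.48, SE 0.52, adjusted p = 0.0859).

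Of the 16 glycolysis and hypoxia genes all were tested, Slc2a3 was called, and 0 were higher and 3 lower at an unadjusted p under 0.05, with a median of 0.04. The other members of the 3 were Slc2a1 (GLUT1, difference -0.86, SE 0.19, adjusted p = 0.11) and hexokinase 2 (Hk2, -0.72, SE 0.29, adjusted p = 0.401). Of 11 trophectoderm genes 10 were tested, 0 higher and 3 lower at an unadjusted p under 0.05 (median -0.85, and -2.98 without Sox1-FOXA2+ replicate 2). Those 3 were Tfap2c (-3.75, SE 1.25, adjusted p = 0.278), Gata2 (-3.76, SE 1.24, adjusted p = 0.278) and Ascl2, which had 0 counts in FOXA2+ against 506 in FOXA2- libraries (at least 160-fold lower, adjusted p = 0.251). Of 13 p53 and apoptosis genes, 7 had a positive and 6 a negative difference (median 0.04). At an unadjusted p under 0.05, 3 were higher and 0 lower, among them Mdm2 (0.49, SE 0.17) and Ccng1 (0.47, SE 0.17). In the cell cycle list 14 of 23 were positive and 9 negative (median 0.09). At the same level 2 were higher and 0 lower, including Top2a (0.46, SE 0.13, adjusted p = 0.252). Over all genes tested, 3.38% were higher and 5.38% lower at that level.

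The remaining lists held 0 called genes. In the epithelial and cadherin list 8 of 16 genes were positive and 8 negative (median -0.01). At an unadjusted p under 0.05, 1 was higher and 2 were lower, and the desmosome gene Dsp differed by 1.14 (SE 0.32, adjusted p = 0.248). The immediate early and stress list had 7 of 14 positive and 7 negative (median 0.02). It had 1 gene higher and 2 lower at that level, and Jun differed by 1.15 (SE 0.34, adjusted p = 0.263). The cholesterol and lipid synthesis list had 5 of 14 positive and 9 negative (median -0.04). At that level 2 were higher and 1 lower, and lanosterol synthase (Lss) differed by -1.06 (SE 0.32, adjusted p = 0.263), without overlap. Of 15 genes tested for mesoderm, neural crest and mesenchyme none reached an unadjusted p under 0.05 in either direction (median 0.71, or 0.37 without Sox1+FOXA2- replicate 3 and 0.07 if Sox1-FOXA2+ replicate 1 was left out).

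The D2 differences were set beside those of cells sorted at D4 and D6, in fits of 2 days that gave each day its own Sox1 and FOXA2 terms. At D4, edgeR called 0 of 25172 genes whose FOXA2 difference differed from that at D2 (0.0%, 2063 at an unadjusted p under 0.05, 641 by DESeq2's Wald test), and 1 gene in 4 of the 24 fits that left out 1 library. The smallest p on the falling side belonged to Mest, an imprinted gene, whose difference was 0.47 at D2 and -1.71 at D4 (adjusted p = 0.163). H19, Lin28b, Lin28a and Igfbp5 followed it, and A730045E13Rik, Chn2, Vmn2r65, Muc1 and 9530046B11Rik had the smallest p on the other side. At D6 the difference had moved in 78 of 26096 genes (0.299%), up in 62 (0.238%) and down in 16 (0.0613%). That count was 42 without D6 Sox1-FOXA2+ replicate 1 and 132 without D6 Sox1+FOXA2+ replicate 1.

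The genes with the smallest p among those whose difference moved up by D6 were not called at D2. Lamc1 and Sparc, genes of the basement membrane, differed by -0.03 (SE 0.31) and 0.90 (SE 0.34) at D2, and by 4.19 (SE 0.45) and 4.54 (SE 0.41) at D6. The lysosomal protease gene Ctsl went from -0.06 to 3.63, the hypoxia-inducible factor gene Epas1 from 0.31 to 4.71, and Lrpap1, the chaperone of LDL receptor proteins, from -0.56 to 3.96 (adjusted p of the move between 2.15e-05 and 0.00148 for the 5 genes). Those that moved down were Map1b, a microtubule-associated protein of neurons (0.86 at D2 and -1.09 at D6), the chromatin protein gene Hmga2 (1.57 and -1.46), Map4k4 (0.83 and -0.51), Ttc3 (0.68 and -0.70) and Zfp608 (0.71 and -1.60). Their adjusted p for the move lay between 0.002 and 0.00704.

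Of the 16 genes called at D2, 15 were not called at D6. The difference of Peg3 was 2.14 at D2, 0.32 (SE 0.33) at D4 and -0.26 (SE 0.32) at D6, and the move from D2 to D6 was called (adjusted p = 0.00937). Igfbp5 went from 3.51 through 0.99 (SE 0.45) to -0.61 (SE 0.59, adjusted p of the move 0.0155). Its mean in Sox1-FOXA2- cells was 368 normalized counts at D2, 3704 at D4 and 4538 at D6, and in Sox1-FOXA2+ cells it was 4116, 7940 and 1358. Gpx4 was at 0.07 (SE 0.26) and Slc2a3 at 0.40 (SE 0.30) at D6, and both moves were called (adjusted p = 0.0426 and 0.0491), as was that of Gm1995 (adjusted p = 0.0262). In all, 5 of the 16 differences moved between D2 and D6. The 16 were chosen by their D2 difference in libraries that also enter this test. A smaller difference at later days therefore follows in part from the choice. Over the list members tested at D2, the median difference of parietal endoderm and basement membrane was 0.47 at D2, 1.84 at D4 and 3.80 at D6. That of primitive and visceral endoderm was 0.82, 2.72 and 3.43, and that of naive pluripotency -2.16, -0.50 and -1.0. Medians over all genes tested in each fit were -0.05, 0.06 and -0.13. Over all members tested in the fits of D4 and D6, the parietal list gave 1.82 and 3.975 and the visceral list 2.72 and 3.13.

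Myh9 was the 1 gene called at D2 that was also called at D6, with a difference of 1.40 (SE 0.20, adjusted p = 0.000106), where 0.908% of genes were called. Rarg was at -2.15 (SE 0.60, adjusted p = 0.0896), Emb at 1.01 (SE 0.32, adjusted p = 0.186) and Spats2 at 0.79 (SE 0.24, adjusted p = 0.141) at D6. The sign of the D2 difference was kept by 13 of the 16 genes at D4 and by 9 at D6. The share of all genes that kept their sign was not computed. At D0, in undifferentiated Sox1-FOXA2- cells, the mean of each of the 16 genes differed from the D2 FOXA2+ mean in the same direction as the D2 FOXA2- mean did. Since the 16 were chosen by how far the D2 FOXA2+ libraries lay from the FOXA2- libraries, this agreement is not independent of the choice. The share of all genes with such an agreement was not computed. The D0 libraries all lay outside the D2 FOXA2+ range, on the side of the D2 FOXA2- mean, for 5 of the 8 genes called higher. The same held for 5 of the 8 called lower. How many of all genes lay so was not computed, so that these counts have no background beside them. Igfbp5 held 172 ± 291 (SD, n = 3) normalized counts at D0, Peg3 13621 ± 9030, Rarg 4660 ± 1114 and Dppa5a 12998 ± 4659. Slc2a3 held 18719 ± 8646 (SD, n = 3) there, within the range of the D2 FOXA2+ libraries and below every D2 FOXA2- library.

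**Figure D5:**
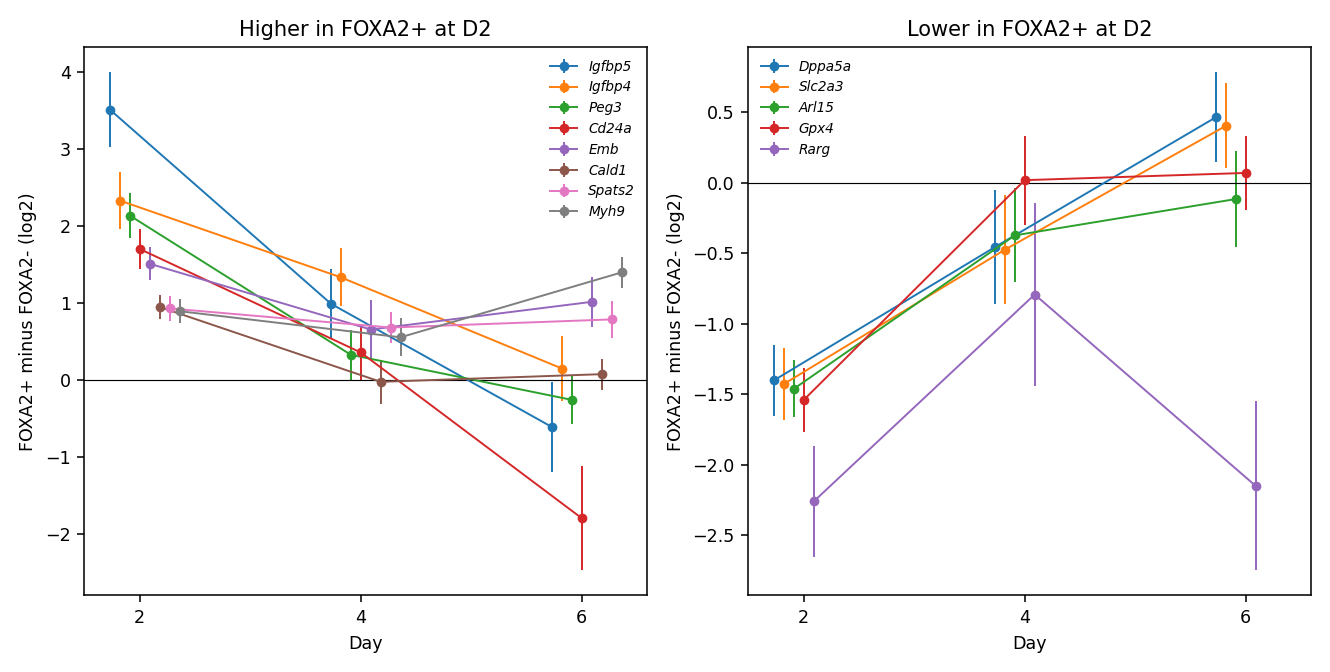
Log2 difference between FOXA2+ and FOXA2- cells (vertical axis) at D2, D4 and D6 (horizontal axis) for the called genes that rose (left) and fell (right) at D2, other than Zscan4a, Gm1995 and Gm40662. Points are fitted differences and bars their standard errors. The genes were chosen by their difference at D2. Igfbp5 runs from 3.51 at D2 to -0.61 at D6, whereas Rarg is at -2.15 and Myh9 at 1.40 at D6.

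Since FOXA2 is a DNA-binding protein, the letters of a FOXA site were looked for upstream of the called genes. RefSeq promoters of GRCm38.p6 were found for 11 of the 16 called genes, in 16 windows of 250 bases before a start. The letters TGTTTAC, on either strand, stood in 1 of the 16 windows and in 3.17% of all 32851 windows. The 1 window was that of Cald1, shown with the match in capitals, which is on the opposite strand and begins 45 bases before the start.
Cald1 (chr6:34598433-34598492, plus strand): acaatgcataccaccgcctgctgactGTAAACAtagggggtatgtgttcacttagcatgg
The letters TGGGTGGTC of a GLI site, on either strand, stood in none of the 16 windows and not in that of Ptch1, and in 0.225% of all windows. Such a match describes letters only.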

How the data were processed

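The authors deposited 1 table of raw read counts per gene for 57 libraries, and 12 libraries of D2 were compared here. Per the labels and the study's methods, samples of about 500 sorted cells were made into libraries with the SMART-Seq Stranded Kit and sequenced on a NovaSeq6000. The submitters' processing notes name STAR, SAMtools and featureCounts, with no version, and the identifiers are those of GENCODE on GRCm38. The table had 55542 rows, of which 92 named no gene and held 0 counts, and all of its columns were mapped to a library. No pair of libraries was identical. Some genes that lie inside another gene, such as Sox1 and Sox2, had 0 counts, genes that share exon bases with another gene (Rarb at 38.4%, Ctsl at 26.8%) may be undercounted, and counts of families of like copies such as Zscan4 are uncertain one by one, since how shared reads were counted is not given in the sources used here.

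Counts were tested as deposited with edgeR 4.0.16 (R 4.3.3, limma 3.58.1): TMM scaling, filterByExpr over the 4 groups (minimum count 10, minimum total 15), a prior count of 0.125, glmQLFit and glmQLFTest, and Benjamini-Hochberg adjustment over all genes tested, with a gene called at an adjusted p under 0.05. The filter asks for about 10 counts at the median library size, in as many libraries as the smallest group holds. A gene near 0 on 1 side of the FOXA2 gate could pass through the other side alone, which also set the sign of its difference. The model held the FOXA2 gate with the Sox1 gate as covariate, a model of 4 group means gave the within-gate differences and the interaction, and fits of 24 libraries each compared D4 and D6 with D2. Standard errors are the log2 difference divided by the square root of F. Normalized counts use DESeq2 1.42.0 size factors over the 57 libraries, and are not scaled for gene length. Folds against 0 use a floor of 3 counts over the group, and intervals are exact at 95%, covering counting error only. The fits were tested on simulated data. Figures were drawn with matplotlib 3.10.9.

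The members, the 22 gene lists and the rule for named genes were chosen with earlier results of these data known. The rule names Foxa2, every gene called where 30 or fewer are called, list members, the genes with the next smallest p, and the 5 genes with the smallest p in each direction of the interaction and of the D4 and D6 tests. Alternatives were DESeq2's Wald test, DESeq2 size factors, no filter on low counts, limma-voom with quality weights, a replicate block, a fit of all 39 sorted libraries, a fit averaged over the 4 group means, each library left out in turn, and, chosen after seeing the data, a filter on the additive design. The 18 libraries of progeny cells entered the size factors only.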

Additional observations from a re-analysis of the deposited data

Results flagged for a closer look

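For 6 of 42 groups of 6 libraries, 1 library lay farther from the rest than Dixon's 95% critical ratio of 0.625 allows. That ratio is meant for values of a single normal population. The flagged groups joined Sox1- and Sox1+ libraries on an unlogged scale, so that their number cannot be set against a chance rate. Sox1-FOXA2- replicate 2 was the highest FOXA2- library for Zscan4a (5232 normalized counts), Gm1995 (3103) and Gm40662 (2447). Sox1+FOXA2+ replicate 2 was the highest FOXA2+ library for Igfbp5 (14631) and Myh9 (27445), and Sox1+FOXA2+ replicate 1 for Gm40662 (12.7). Without Sox1-FOXA2- replicate 2, Zscan4a was still called at a fitted log2 difference of -10.08 (adjusted p = 0.0174), whereas Gm1995 (adjusted p = 0.142) and Gm40662 (adjusted p = 0.221) were not. Without Sox1+FOXA2+ replicate 2, Igfbp5 was called at 2.70 (adjusted p = 0.0152) and Myh9, at 0.72, was not (adjusted p = 0.105). Gm40662 was called without Sox1+FOXA2+ replicate 1 (adjusted p = 0.0145).

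Between D2 and D6, the test of the difference itself called 78 genes whose FOXA2 difference was not the same at both days. On the log2 scale the difference at D6 minus that at D2 was 4.55 for Lrpap1, 4.44 for Epas1, 4.25 for Lamc1, 3.68 for Sparc and 3.74 for Ctsl. It was -1.91 for Map1b, -2.28 for Zfp608, -3.01 for Hmga2, -1.30 for Map4k4 and -1.36 for Ttc3. Of the genes called at D2, it was -2.37 for Peg3, -4.11 for Igfbp5, 1.64 for Gpx4, 1.86 for Slc2a3 and, as a fitted value for a gene at 0 in the D2 FOXA2+ libraries, 13.1 for Gm1995. These genes were chosen by their difference in the D2 libraries, which also enter this test.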

How the results depend on the processing

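The number of genes called between FOXA2+ and FOXA2- cells, 16, was 372 with DESeq2's Wald test, 353 with no filter on low counts, 124 with limma-voom and 25 with a replicate block, and 6 to 30 with 1 library left out. Within Sox1- it was 446, 204 and 20 with DESeq2, no filter and the block (1 to 12 with 1 library left out), and within Sox1+ it was 392 and 95 with DESeq2 and no filter, 0 with the block and 0 to 6 with 1 library left out. The interaction gave 366 with DESeq2 and 56 with no filter (0 to 1 with 1 library left out). The D4 difference gave 641, 91 and 3 with DESeq2, no filter and the block (0 to 1), and the D6 difference 1004, 260 and 115 (42 to 132). DESeq2 size factors gave 15 genes at D2, the fit of all 39 sorted libraries 17, of which 7 were among the 16, and the filter on the additive design 13. The 16 genes kept their sign in all 320 fits of a gene under an alternative and were called in 244. Zscan4a, Peg3, Igfbp5, Arl15, Emb and Gpx4 were called with any 1 library left out, and Peg3, Igfbp5 and Gpx4 under every alternative run. Pax6, at -0.46 to 0.30 with 1 library left out, turned sign to 0.30 and 0.08 without Sox1+FOXA2- replicate 1 and Sox1+FOXA2+ replicate 2. With 1 library left out, list medians ranged from -0.318 to -0.0282 for Nodal, BMP, FGF and Wnt signalling, from -2.98 to -0.532 for trophectoderm, from -0.503 to 0.0423 for immediate early and stress, and from -0.240 to 0.0645 for glycolysis and hypoxia. The difference in genes detected ranged from -3832 to -2406, and passed the exact permutation test without Sox1+FOXA2- replicate 3 (-3832, p = 0.01). The main fits did not pair libraries by replicate number. Correlations of same-numbered libraries between groups ran from -0.24 to 0.44, and none of the 6 pairs of groups had every one over 0.1. Yet 8 of 12 libraries correlated best with their own number, and the replicate block gave 25 calls against 16. These values do not settle whether the numbers pair the libraries. The cause of these changes was not tested.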
